A study of Danio rerio with 10 samples.

Results

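Of 36351 annotated gene IDs counted in zebrafish ebf3a mutants and WT fish, 260 were changed alike in heterozygotes (+/−) and homozygotes (−/−) at 2 days post-fertilization (dpf): 130 were lower and 130 were higher in both mutant genotypes than in WT (+/+). The level of a gene is given in CPM, its reads per 1000000 reads counted on genes in the library. A gene was included if both WT libraries lay below, or both above, all 4 mutant libraries, if the mean of WT and the mean of the 4 mutant libraries differed at least 1.4-fold, if the smaller of the heterozygous and homozygous means was over 0.85 times the larger, and if the larger of the WT and mutant means reached 2 CPM. A stretch of neighbouring IDs that rose together in 2 dpf mutants was left out, which removed 1 further higher gene. The genes were thus chosen by their measured levels at 2 dpf, and what is said of them at that age is a description. The levels at 5 dpf took no part in the choice.

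The study made a frameshift in ebf3a with CRISPR/Cas9 and a single guide RNA in AB WT zebrafish, and RNA was sequenced from genotyped embryos and larvae. At 2 dpf there were 2 homozygous, 2 heterozygous and 2 WT libraries, each a pool of 15 to 20 embryos labelled as upper body with eyes, and at 5 dpf 2 homozygous and 2 WT libraries, each a pool of 10 to 12 larvae labelled as head with eyes. No heterozygous library of 5 dpf was analysed here. The extraction protocol in the labels instead names the front of the body for both ages, and gives the older age as 6 dpf. Each library is a pool, the labels do not say whether pools of a genotype came from separate clutches, and all mutants carry the same allele, so a p-value measures only the spread between these pools.

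Ebf3 belongs to the early B cell factor family, DNA-binding proteins with a helix-loop-helix domain that act late in neurogenesis, when precursors leave the cell cycle, migrate and take on their neuronal identity. Family members are also found in olfactory sensory neurons and in parts of the hindbrain, and in people the loss of a single EBF3 copy is enough to cause a neurodevelopmental disorder.

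Between 30070283 and 47797511 reads per library were counted on genes, and from 26088 to 28326 IDs had at least 1 read. At 2 dpf the WT libraries were the deepest, with 43284327 and 47797511 reads against 30070283 to 34661012 in the mutants, so depth and genotype cannot be told apart in this design. Replicate libraries of every group differed by more than the sampling noise. The IDs are those of the Lawson Lab annotation, of which 0 were found in the tables of zebrafish gene names, so the genes have no symbol, role or sequence here, and neither ebf3a nor the markers of any tissue could be checked. In tissue of this kind, fewer cells of a type and less RNA per cell cannot be told apart.

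The steps of the choice were not symmetrical. Of 16166 IDs that reached 2 CPM, both WT libraries lay above all 4 mutant libraries in 2093, or 12.9%, and below them in 1602, or 9.91%. A difference of at least 1.4-fold was kept by 284 and, outside the stretch, by 199 of these. The heterozygous and homozygous means were then alike in 45.8% of the lower genes and in 65.3% of the higher genes, which gave the same number of genes on both sides. The limits cut through a continuous range. Just inside the limit on fold, a lower gene differed 1.4008-fold and a higher gene 1.4001-fold, and the nearest genes outside differed 1.3984-fold on both sides. Just inside the limit on likeness the ratio of the means was 0.8511 on both sides, against 0.8486 and 0.8497 in the nearest lower and higher genes left out. The limit on level parted genes at 2.02 CPM from genes at 1.98 and 1.998 CPM.

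**Figure D1:**
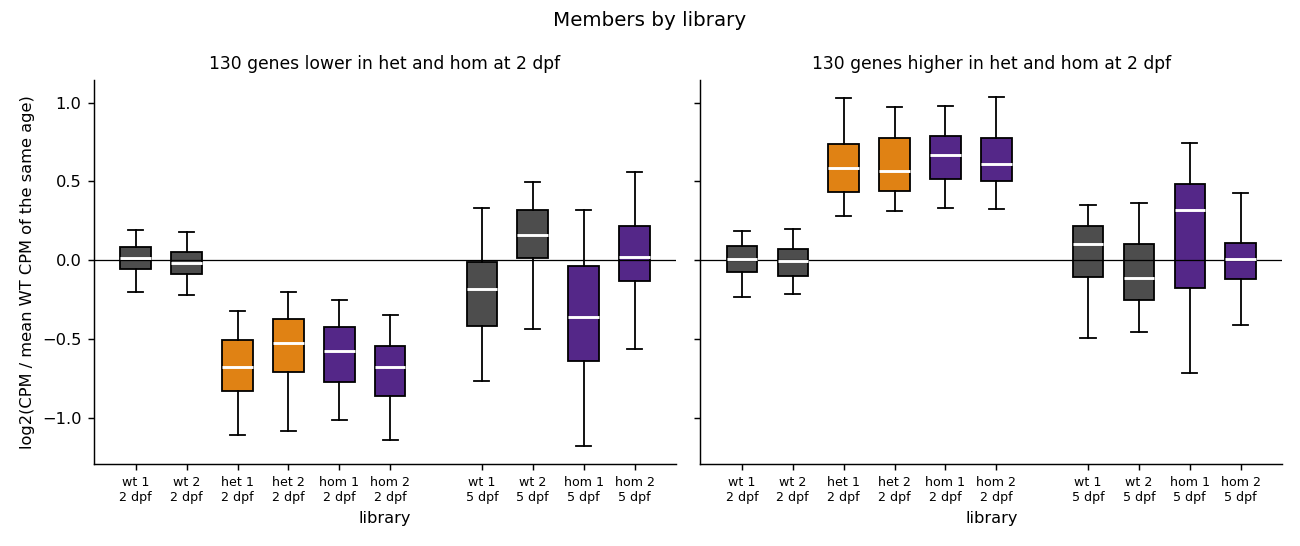
Log2 ratio of the CPM of each gene in a library to the mean WT CPM of the same age, for the 130 lower genes (left) and the 130 higher genes (right). Boxes give the quartiles, white lines the median, and whiskers the 5 and 95 percentiles over genes. At 2 dpf the boxes of all 4 mutant libraries lie away from 0, as the choice requires. At 5 dpf the replicate 1 and replicate 2 libraries part in both genotypes.

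The 130 lower genes were genes of modest level, changed by a modest amount. Their mean over the 6 libraries of 2 dpf ranged from 1.55 to 52.5 CPM with a median of 3.69 CPM, against a median of 16.8 CPM over all IDs at 2 CPM or more, and 47 of them reached 5 CPM. The fold between WT and mutants was 1.499 at the median, with quartiles of 1.44 and 1.61 and a highest value of 2.00. In single libraries the median log2 ratio to the mean of WT was -0.68 and -0.52 in heterozygous replicates 1 and 2, and -0.58 and -0.68 in homozygous replicates 1 and 2. Neither genotype was therefore the lower in both of its libraries. In 41 of the 130 genes the gap between WT and mutant libraries was wider than the range within either. The choice itself required a gap, and the share over all genes was not computed. The fewest reads of a lower gene in any 2 dpf library were 20, and the median over genes of this lowest count was 85.5.

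Of the lower genes, LL0000023092 had the largest fold. It was at 2.77 and 2.28 CPM in the WT libraries, at 1.27 and 1.38 CPM in heterozygotes, and at 1.33 and 1.08 CPM in homozygotes. The heterozygous and homozygous libraries overlapped, and the reads behind these values were 34 to 45 in the mutants and 109 and 120 in WT. At 5 dpf its level was higher than at 2 dpf in all libraries, with 4.43 and 7.28 CPM in WT and 4.59 and 6.55 CPM in homozygotes, and the genotypes overlapped. The log2 fold change between homozygotes and WT at 5 dpf was -0.09 (standard error, SE, 0.33; edgeR quasi-likelihood or QL test, Benjamini-Hochberg adjusted p = 1.00), and its sign turned without homozygous replicate 1 (0.14) or WT replicate 2 (0.32).

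The lower gene with the highest level was LL0000011530. It was at 66.5 and 65.7 CPM in WT, at 44.6 and 53.0 CPM in heterozygotes and at 43.6 and 41.4 CPM in homozygotes, so both heterozygous libraries were above both homozygous libraries and well below WT. At 5 dpf it was at 44.8 and 72.8 CPM in WT and at 48.1 and 54.1 CPM in homozygotes, which lay within the range of WT. The log2 fold change there was -0.21 (SE 0.24, edgeR QL test, adjusted p = 1.00), and 0.19 without WT replicate 2.

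The 130 higher genes reached further up the range of levels. Their mean over the 6 libraries of 2 dpf ranged from 1.79 to 653.5 CPM with a median of 4.58 CPM, and 59 of them reached 5 CPM. The fold between mutants and WT was 1.52 at the median, with quartiles of 1.44 and 1.63 and a highest value of 2.20, and 3 genes were at least 2-fold higher. In single libraries the median log2 ratio to the mean of WT was 0.59 and 0.57 in heterozygous replicates 1 and 2, and 0.67 and 0.61 in homozygous replicates 1 and 2. These 4 medians lay closer together than those of the lower genes. In 39 of the 130 genes the gap between WT and mutant libraries was wider than the range within either. Here too a gap was required by the choice, and no share over all genes was computed. The fewest reads in any 2 dpf library were 45.

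LL0000025401 had the largest fold of the higher genes. It was at 2.52 and 2.15 CPM in WT, at 5.74 and 4.48 CPM in heterozygotes and at 4.56 and 5.79 CPM in homozygotes, and the mutant genotypes covered nearly the same range. At 5 dpf it was at 4.59 and 3.12 CPM in WT and at 6.18 and 3.71 CPM in homozygotes, so the genotypes overlapped. The log2 fold change at 5 dpf was 0.35 (SE 0.36, edgeR QL test, adjusted p = 1.00), and -0.08 without homozygous replicate 1.

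The higher gene with the highest level was LL0000012141. It was at 506.2 and 501.3 CPM in WT, at 840.8 and 696.8 CPM in heterozygotes and at 702.5 and 673.3 CPM in homozygotes. Heterozygous replicate 1 stood highest, and the other mutant libraries lay within a narrow range. At 5 dpf it was at 932.0 and 557.1 CPM in WT and at 887.3 and 704.7 CPM in homozygotes, again inside the range of WT. The log2 fold change at 5 dpf was 0.08 (SE 0.29, edgeR QL test, adjusted p = 1.00), with a turned sign without homozygous replicate 1 (-0.11) or WT replicate 2 (-0.23).

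**Figure D2:**
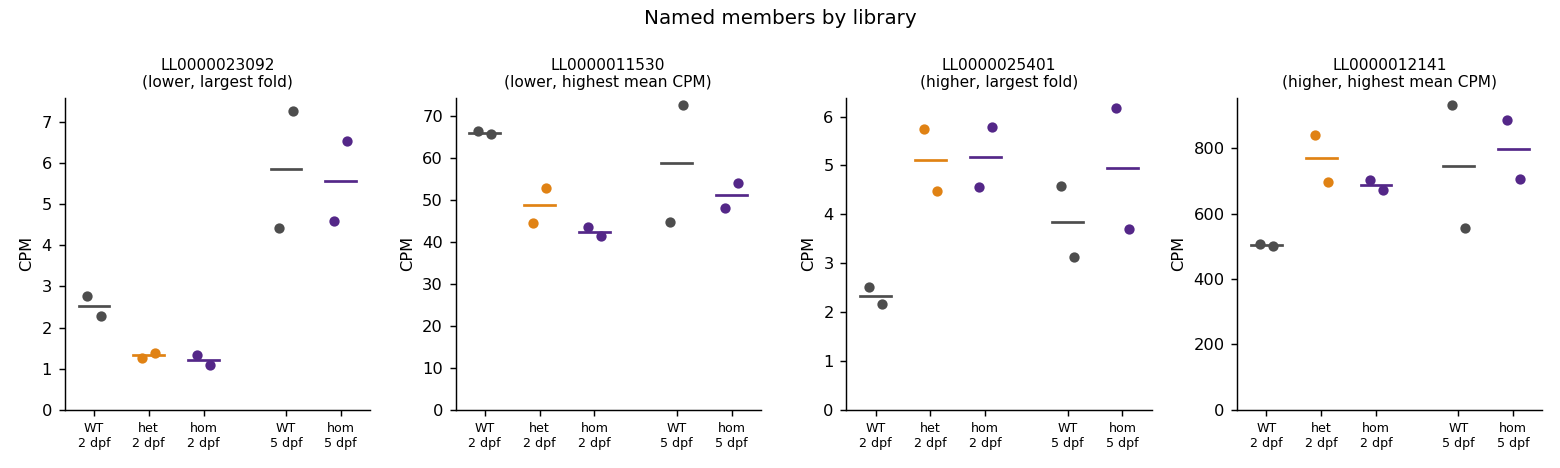
CPM of the 4 named genes in each library (points, replicate 1 left and replicate 2 right) with the mean of each group of 2 (lines), on axes that start at 0. At 2 dpf the WT points lie apart from all mutant points, and at 5 dpf the points of the genotypes overlap in all 4 genes.

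Within the limit on likeness, homozygotes and heterozygotes were close to each other. The smaller of the means was 91.9% of the larger at the median of the lower genes and 92.3% at the median of the higher genes. The homozygous mean was the further from WT in 82 of the 130 lower genes and, likewise, in 82 of the 130 higher genes. The median log2 ratio of homozygotes to heterozygotes was -0.05 in lower and 0.07 in higher genes, against ratios to WT of -0.56 and 0.58 in heterozygotes and -0.63 and 0.63 in homozygotes. The libraries of the mutant genotypes did not overlap in 13 lower (10.0%) and 30 higher genes (23.1%), against 40.7% of all IDs at 2 CPM or more, and the limit on likeness lowers this share by construction. These values come from the libraries and the contrast that chose the genes.

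**Figure D3:**
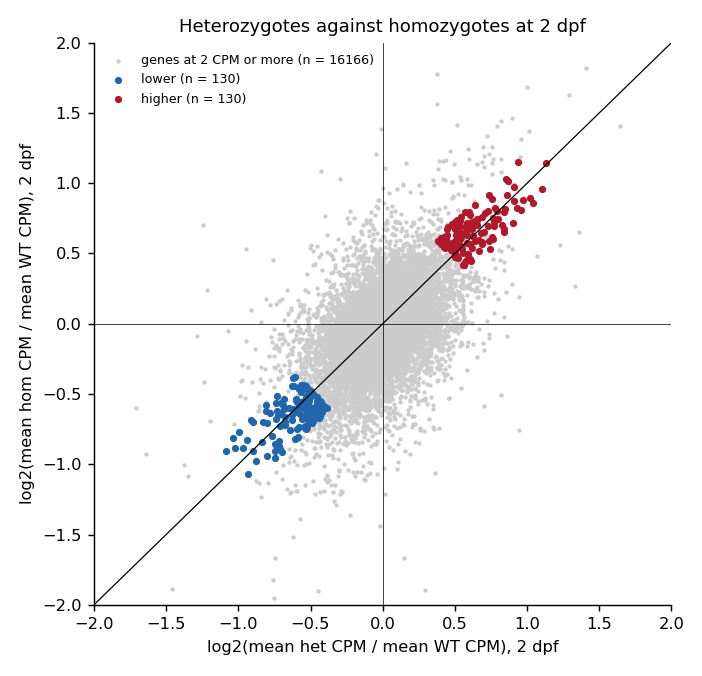
Log2 ratio of the heterozygous mean (horizontal) and of the homozygous mean (vertical) to the WT mean at 2 dpf for 16166 IDs at 2 CPM or more (grey), with the 130 lower genes in blue and the 130 higher genes in red. The diagonal marks equal ratios, points beyond the axes are not drawn, and the coloured genes lie along the diagonal because they were chosen so.

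Replicates of these genes were noisier than those of most genes of 2 CPM or more. The coefficient of variation between the replicates of a genotype, for the lower genes, was 7.29% in WT, 15.0% in heterozygotes and 13.2% in homozygotes at the median. For the higher genes it was 8.48%, 12.3% and 10.9%. Over all IDs at 2 CPM or more the medians were 4.21%, 6.48% and 6.84%, and those IDs had higher levels. In both sets WT was the most even genotype, as it was over all IDs. The WT libraries were also the deepest at 2 dpf, so depth and genotype cannot be told apart here.

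In a fit of the 3 genotypes over 22383 genes with the edgeR QL test, which all 260 genes entered, a gene was called at an adjusted p under 0.05 (Benjamini-Hochberg). Between heterozygotes and WT, 9 of the 130 lower genes were called lower and 14 of the 130 higher genes were called higher, where 0.125% and 0.259% of all genes tested were called in these directions. Between homozygotes and WT, 20 lower and 35 higher genes were called, where 0.746% and 0.871% of all genes tested were. All 9 and all 14 were also called in homozygotes, which leaves 110 lower and 95 higher genes called in neither comparison. Both comparisons share the WT libraries, and the choice used both contrasts, so nothing is read from these counts. They rested on single libraries. Leaving out either WT library lowered the calls in both comparisons, in these genes and over all genes tested. Leaving out either homozygous library raised the calls in heterozygotes, again in these genes and over all genes tested. The dependence was thus not particular to these genes.

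The sets themselves also rested on single libraries. The same limits were met by 257 lower genes without heterozygous replicate 2 and by 229 without WT replicate 2, of which 84 and 109 were among the 130. They were met by 210 higher genes without WT replicate 1, of which 102 were among the 130. Without other 2 dpf libraries from 114 to 179 lower and from 126 to 187 higher genes met them. Of the 130 lower genes, 67 still met them without heterozygous replicate 1, and 73 and 69 without homozygous replicates 1 and 2. Of the 130 higher genes, 82 still met them without any 1 of the heterozygous or homozygous libraries. A total near 130 thus held many other genes. A library less makes it easier for groups not to overlap.

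Of the 260 genes, 15 pairs had IDs within 5 of each other and 2 pairs had adjacent IDs. In 9 of the 15 pairs both genes were lower, in 4 both were higher and in 2 they differed. No run was longer than 2 genes. Whether this differs from other genes, and whether neighbouring IDs are neighbours in the genome, was not tested.

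At 5 dpf, in libraries that took no part in the choice, no gene of either set was called between homozygotes and WT (edgeR QL test over 23654 genes, smallest adjusted p among the 260 genes = 1.00), and 0% of all genes tested were. DESeq2's Wald test also called 0 of them. Of the lower genes 129 and of the higher genes 128 passed the filter on low counts at this age. An unadjusted p under 0.05 was reached by 2 lower genes that were lower again and by 2 that were higher. Each is 1.55% of the 129 tested. Over all genes tested 0.854% and 0.321% reached it in these directions, and 0.453% and 0.23% of tested genes that reached 2 CPM at 2 dpf. Of the higher genes, 0 had an unadjusted p under 0.05.

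Small differences at 5 dpf mostly had the direction of 2 dpf. The homozygous mean was below the WT mean in 88 of the 130 lower genes (67.7%), against 45.2% of the 16120 tested genes that reached 2 CPM at 2 dpf. It was above the WT mean in 86 of the 130 higher genes (66.2%), against 54.8% of those genes. The median log2 fold change was -0.15 for the lower and 0.13 for the higher genes, and 0.00 over the 16120 genes. Between homozygotes and WT at 2 dpf it was -0.61 and 0.65, but there the choice had required at least 1.4-fold between mutants and WT. The medians of the sets therefore cannot be compared between the ages. A difference of 1.4-fold or more in the direction of 2 dpf was found in 9 lower (6.92%) and 5 higher genes (3.85%). It was found in the opposite direction in 4 (3.08%) and 3 (2.31%). The shares of the sets count all 130 genes, also the few that did not pass the filter on low counts. Among the 4 was a gene with 3 to 13 reads in the 5 dpf libraries, and among the 3 a gene with 0 or 1 read. Over the 16120 genes, 1.46% were 1.4-fold or more below WT and 0.875% above. Over all 23654 genes tested it was 5.64% and 3.28%. In both directions the shares of the sets lay above those of the 16120 genes. Against all genes tested, the shares in the direction of 2 dpf were near the background, and those in the opposite direction were not above it. Each share of the sets rests on few genes, 1 of the 3 being almost without reads, and no excess is read from them. The sets also had lower levels at 2 dpf than genes at 2 CPM or more, and what this adds was not tested.

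**Figure D4:**
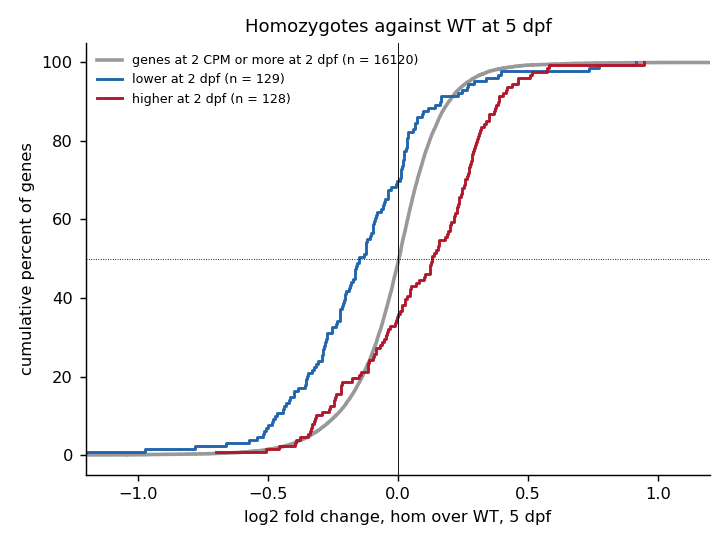
Cumulative percent of genes (vertical) by log2 fold change of homozygotes over WT at 5 dpf (horizontal) for the 129 lower genes tested (blue), the 128 higher genes tested (red) and 16120 tested genes at 2 CPM or more at 2 dpf (grey). The curves cross 50% at -0.15, 0.13 and 0.00.

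These medians depended on which libraries were used. A fit without a library sets a single replicate number of a genotype against both numbers of the other, so it mixes replicate number with genotype. For the lower genes the median was -0.01 without homozygous replicate 1 and 0.07 without WT replicate 2, but -0.35 without homozygous replicate 2 and -0.31 without WT replicate 1. For the higher genes it was -0.02 without homozygous replicate 1, 0.08 without WT replicate 2, 0.33 without homozygous replicate 2 and 0.28 without WT replicate 1. Between libraries of the same replicate number, the median log2 ratio of homozygotes to WT was -0.12 for replicate 1 and -0.12 for replicate 2 in the lower genes, and 0.17 and 0.09 in the higher genes. The labels do not say that a replicate number marks a shared clutch.

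In most genes of either set the genotypes overlapped at 5 dpf. They must overlap in a gene whose replicate 1 libraries are both below, or both above, both replicate 2 libraries. What this adds to the shares that follow was not tested. Both homozygous libraries were below both WT libraries in 21 lower genes (16.2%). The background was 7.63% of genes at 2 CPM or more and 9.7% of all genes tested. Both were above WT in 6 lower genes (4.62%), against 12.1% and 11.3%. For the higher genes both homozygous libraries were above both WT libraries in 14 (10.8%), against 12.1% and 11.3%, a share near the background. Both were below WT in 6 higher genes (4.62%), against 7.63% and 9.7%.

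The 5 dpf libraries parted by replicate number in more of these genes than they parted by genotype, as they did over all genes. In 73 of the 130 lower genes (56.2%) both replicate 1 libraries of 5 dpf were below both replicate 2 libraries, against 29.2% of genes at 2 CPM or more and 32.0% of all genes tested. In 64 of the 130 higher genes (49.2%) both replicate 1 libraries were above both replicate 2 libraries, against 31.0% and 26.2%. The median log2 ratio of replicate 2 to replicate 1 was 0.39 in homozygotes and 0.34 in WT for the lower genes, and -0.28 and -0.22 for the higher genes, while it was -0.02 and -0.00 over genes at 2 CPM or more. What parts the replicates was not tested.

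The age comparisons use the 2 dpf libraries that chose the genes. A higher gene was chosen for a low WT level and a raised homozygous level at 2 dpf, which adds to its change with age in WT and takes from it in homozygotes, and the reverse holds for a lower gene. The labelled dissection and the size of the pools also changed between the ages, so age and dissection cannot be told apart. The values with age are therefore a description, and the difference between the sets was not tested.

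In a fit of all 10 libraries over 24844 genes with the edgeR QL test, 86 of the 130 higher genes (66.2%) were called higher and 13 lower at 5 than at 2 dpf in WT. Among genes at 2 CPM or more at 2 dpf, 27.5% were called higher and 42.5% lower, and among all genes tested 35.0% and 30.8%. In homozygotes, 69 higher genes (53.1%) were called higher and 22 lower with age, where 27.2% and 41.6% of genes at 2 CPM or more were, and 34.2% and 30.1% of all genes tested. The median level of the higher genes went from 3.26 CPM in WT at 2 dpf to 11.1 CPM at 5 dpf, and from 5.28 to 12.3 CPM in homozygotes.

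Of the 130 lower genes, 42 (32.3%) were called higher and 37 (28.5%) lower at 5 than at 2 dpf in WT, against 27.5% and 42.5% of genes at 2 CPM or more and 35.0% and 30.8% of all genes tested. In homozygotes 59 (45.4%) were called higher and 24 (18.5%) lower, against 27.2% and 41.6%, and 34.2% and 30.1%. Their median level went from 4.97 CPM at 2 dpf to 6.80 CPM at 5 dpf in WT and from 3.08 to 6.38 CPM in homozygotes. The median log2 fold change with age was 0.22 in WT and 0.62 in homozygotes for the lower genes, 1.18 and 0.71 for the higher genes, and -0.22 and -0.21 for genes at 2 CPM or more. In homozygotes the medians of the sets were closer to each other than in WT, a difference that the choice at 2 dpf favours by construction. Called higher with age in both genotypes were 42 lower (32.3%) and 69 higher genes (53.1%), against 24.6% of genes at 2 CPM or more and 30.6% of all genes tested. Called lower in both were 24 (18.5%) and 13 (10.0%), against 39.1% and 27.6%. Called in opposite ways were 0 genes of either set, as were 0% of genes at 2 CPM or more and 0.00403% of all genes tested.

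**Figure D5:**
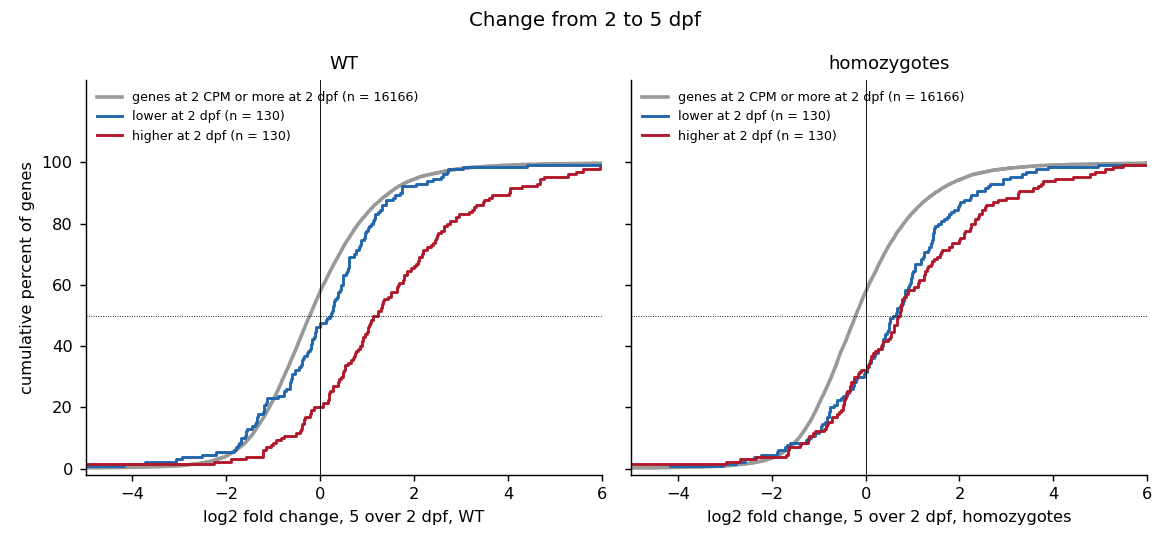
Cumulative percent of genes (vertical) by log2 fold change from 2 to 5 dpf (horizontal) in WT (left) and homozygotes (right) for the 130 lower genes (blue), the 130 higher genes (red) and 16166 genes at 2 CPM or more at 2 dpf (grey). In WT the median is 1.18 for the higher and 0.22 for the lower genes, and in homozygotes 0.71 and 0.62. The choice at 2 dpf widens the gap between the sets in WT and narrows it in homozygotes.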

How the data were processed

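Reads were aligned by the authors with STAR (GRCz11, Lawson Lab annotation). The deposited values are counts for each gene ID and library, without normalization. The submitters' processing notes give STAR 2.7.3a, the paper's methods another version. The strand setting is not given in the sources used here, so overlapping genes are uncertain.

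From the counts, CPM were computed on library sums. Tests used edgeR 4.0.16 in R 4.3.3, with TMM scaling, filterByExpr, the quasi-likelihood test and Benjamini-Hochberg adjustment over all genes, called at an adjusted p under 0.05. The 3 genotypes of 2 dpf shared a fit, 5 dpf was fitted alone, and ages were compared in a fit of all 10 libraries. Tests were checked on simulated counts with planted log2 changes of 1 and independent libraries. Most of the genes here changed less, and variation shared by libraries of the same number was not simulated. The check therefore does not show how many changes of their size the tests would miss. Alternatives were other scalings and limits, DESeq2 1.42.0, other filters, a replicate block, other sets of libraries in the fit and leaving out each library. The genes, rules and lists were chosen with earlier results of these data known. In each direction the genes with the largest fold and the highest level are named. Lists of markers and pathways needed gene names and were not used.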

Additional observations from a re-analysis of the deposited data

How the results depend on the processing

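Direction and side of the threshold held under most alternatives. Part of this was fixed in advance, since the rule itself sets the direction of the genes at 2 dpf. However, the sign of the difference between homozygotes and WT at 5 dpf turned in some fits that left out a library. That was so for the medians of both sets and for each named gene. In such fits the replicate numbers were not balanced between the genotypes, so number and genotype were in part mixed. A limit of 1.5-fold left 64 lower and 74 higher genes, a likeness over 0.9 left 83 lower genes, and a minimum of 5 CPM left 65 and 68. Such limits remove genes by construction. TMM scaling gave 119 lower and 137 higher genes, of which 113 and 123 were among the 130. Without single libraries the number of lower genes ran from 114 to 257 and that of higher genes from 126 to 210. As few as 67 of the 130 lower and 82 of the 130 higher genes were among them.

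At 2 dpf, the 23 genes called in heterozygotes became 41 with DESeq2's Wald test and 70 without a filter on low counts. The calls over all genes went from 86 to 244 and 484. The 55 called in homozygotes became 102 without that filter, while the calls over all genes went from 362 to 916. The rise was thus not particular to these genes. Without single libraries these counts ran from 1 to 43 and from 15 to 73. With at least 10 counts in every library, 8 instead of 13 higher genes were called lower with age in WT, where fewer genes were tested. At 5 dpf, 0 of the 260 genes were called under any alternative, including fits without single libraries. The median log2 fold change of the lower genes ran from -0.35 to 0.07 without single libraries and that of the higher genes from -0.02 to 0.33. For LL0000023092 the range was -0.39 to 0.32, for LL0000011530 -0.51 to 0.19, for LL0000025401 -0.0822 to 0.69 and for LL0000012141 -0.23 to 0.52. The cause of these changes was not tested.

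In fits with a replicate block, 0 of the 260 genes were called at 5 dpf, where 10 genes were called in all, and the medians were -0.14 and 0.12. At 2 dpf 17 of these genes were called in heterozygotes and 53 in homozygotes, where 51 and 302 were called over all genes. No other call of these genes changed by over 1.5 times. Deviations of libraries of the same number correlated by 0.499 at 5 dpf and by -0.02 to -0.00 at 2 dpf over genes. There were 2 replicates per group, and the labels give such libraries only a number in common. Same-numbered libraries of 5 dpf thus shared variation that the main fit, without a replicate block, did not model. Its source was not tested. Counts of 20 to 50 reads, as in the lowest genes, limit the precision of a single library.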

Other observations

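The higher gene with the highest level at 5 dpf was at 23.8 and 20.8 CPM in WT, at 52.3 and 43.3 CPM in heterozygotes and at 43.1 and 43.5 CPM in homozygotes at 2 dpf. At 5 dpf it was at 4021 and 3102 CPM in WT and at 5172 and 3351 CPM in homozygotes. The lower gene with the highest level at 5 dpf was at 3.19 and 2.76 CPM in WT, at 1.33 and 1.597 CPM in heterozygotes and at 1.63 and 1.59 CPM in homozygotes at 2 dpf, and at 549.0 and 322.6 CPM in WT and 686.1 and 427.3 CPM in homozygotes at 5 dpf. In both genes replicate 1 was the higher in each genotype at 5 dpf. At the other end, all 4 libraries of 5 dpf were below 1 CPM in 4 lower and 3 higher genes, and above 100 CPM in 2 lower and 10 higher genes. These genes were chosen for their level at 5 dpf after the values were seen, and their IDs are not given.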
